A study of Mus musculus with 15 samples.

Results

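Mouse chromosome 14 was represented on the array by 1562 distinct probes, of 42404 in all and 40726 on the autosomes. They were taken by rule as every non-control probe whose position in the array design lies on chromosome 14, in order of position. Array comparative genomic hybridisation (aCGH) was used, in which tissue DNA and reference DNA carry different dyes and compete for the same probes, so that the log2 ratio of tissue over reference reads the mean copy number over all cells of the piece. DNA came from 5 hepatocellular carcinomas (HCC) and 3 unaffected livers of 3 mice of a C57BL/6.129 background carrying Mad2flox, p53flox and AlbuminCre. Mouse 3151, a female of 16.4 months labelled Mad2(f/f) p53(f/+), gave HCC 1 (its tumour 2), HCC 2 (its tumour 1) and unaffected liver 1. Mouse 3760, a male of 13.8 months labelled Mad2(f/f) p53(f/f), gave HCC 3 (its tumour 2) and unaffected liver 2. Mouse 4033, a male of 13.9 months of the genotype of mouse 3760, gave HCC 4 (its tumour 2), HCC 5 (its tumour 1) and unaffected liver 3. The reference was normal liver DNA of C57BL/6.129 animals of the opposite sex, wild type per the study. Cre is driven from a hepatocyte promoter here, so other cells of a tumour or liver keep the floxed alleles, and the unaffected livers carry the same alleles and Cre as the tumours. Both dye orientations were hybridised for every tissue except HCC 3, which had the forward array alone.

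Mad2l1 encodes a protein of the spindle assembly checkpoint, which holds cells in mitosis until all chromosomes are attached, and cells without it gain and lose whole chromosomes. Mouse chromosome 14 carries the tumour suppressor Rb1, the Hippo pathway kinase Lats2, several liver-secreted proteins, the T cell receptor alpha and delta genes and clusters of granzyme, ribonuclease and olfactory receptor genes. The question was whether, and over what length, its copy number differed between tumours and livers that share these alleles.

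The chromosome 14 probes spanned 116 Mb, up to position 125091905, with a median of 22.8 kb from one probe to the next, against 21.5 kb over the autosomes. The widest gap, of 6.87 Mb, lay between positions 80170970 and 87044201. Of the 1562 probes, 1275 were 60 bases long, and the median GC content was 36.7%, the value also found over the autosomes. A gene name of the array design stood beside 1321 probes (84.6%, against 85.3% over the autosomes), for 744 names in all. The genome build was not named in the files, so positions are those of the array design, and whether a probe is exonic or intronic is not given here.

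The 15 arrays came from 4 slides scanned on 2 days. On each array, 0.0633% to 1.71% of chromosome 14 spots did not rise well above background, and none was saturated. The X log2 ratio was 0.88 in the unaffected liver of the female mouse and -0.87 and -0.92 in those of the males, as the sexes of tissue and reference give. The mean absolute value, 0.89 for a change between 1 and 2 copies, puts 1 extra copy beside 2 at 0.52 on this scale. The probe named Mad2l1 lay at -1.53, -1.04, 0.12, 0.20 and 0.91 in HCC 1 to 5 and at 0.04, 0.33 and 0.67 in unaffected livers 1 to 3, relative to the median of its own chromosome. It was thus low in both HCC of mouse 3151 and in no other tissue. The single Trp53 probe lay at -0.75, -0.92, -0.20, -1.82 and -2.13 in the HCC and at -0.07, -0.87 and -0.72 in the livers. Whether either probe lies inside the deleted part was not checked, and tissues are called by their labels throughout.

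The probes on which the results below turn are shown first, in lower case, 5′ to 3′ as the scanner files give them; the strand is not named there.
The first pair carried the low values of a region called in mouse 4033.
AK047878, chr14:26707473-26707532: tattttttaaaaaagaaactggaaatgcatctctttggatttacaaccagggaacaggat
Cphx, chr14:26775762-26775821: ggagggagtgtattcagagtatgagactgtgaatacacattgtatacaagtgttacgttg
The region seen in mouse 3760 is shown by its first probe, by probes of D930020E02Rik and Entpd4 and by its last probe.
Slc25a37, chr14:69877295-69877344: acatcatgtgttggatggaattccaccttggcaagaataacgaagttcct
D930020E02Rik, chr14:69908873-69908932: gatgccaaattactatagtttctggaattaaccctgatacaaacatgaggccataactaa
Entpd4, chr14:69984198-69984257: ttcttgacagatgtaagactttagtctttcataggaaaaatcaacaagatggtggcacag
Loxl2, chr14:70082914-70082968: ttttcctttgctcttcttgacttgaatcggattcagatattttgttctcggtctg
Lone probes that departed from the chromosome, and the low Rb1 probe, are shown last. Those of Olfr745 and BC055283 departed in tissues of mouse 3151 alone, and that of Lect1 in tissues of mice 3151 and 4033.
Olfr745, chr14:51262595-51262648: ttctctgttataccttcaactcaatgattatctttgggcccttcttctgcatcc
BC055283, chr14:52376883-52376942: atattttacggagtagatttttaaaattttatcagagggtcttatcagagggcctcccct
Rb1, chr14:73639738-73639797: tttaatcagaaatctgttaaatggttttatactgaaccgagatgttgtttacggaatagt
Lect1, chr14:80047909-80047968: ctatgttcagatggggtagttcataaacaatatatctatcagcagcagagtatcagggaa

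Chromosome 14 stood highest in 1 tumour of mouse 3151 and 1 of mouse 4033. The chromosome 14 level, the mean log2 ratio of its probes with each array centred on the median of autosomal probes, was 0.38, -0.15, 0.12, 0.45 and 0.14 in HCC 1 to 5. In unaffected livers 1 to 3 it was 0.02, 0.01 and 0.01. HCC 2 alone lay below the livers, and the other 4 HCC lay above them. Forward and dye swap arrays gave 0.36 and 0.40 for HCC 1, -0.17 and -0.14 for HCC 2, 0.45 and 0.46 for HCC 4, and 0.14 in both for HCC 5. The gap between orientations was at most 0.04 in a tumour and largest, 0.09, in unaffected liver 1, at -0.02 and 0.07. With this baseline every HCC thus lay farther from 0 than any orientation gap. Centred on the mode of the autosomal probes of each array, the levels were 0.26, -0.06, 0.13, 0.41 and -0.11 in HCC 1 to 5. HCC 2 then lay within the largest gap, and the sign in HCC 5 depended on the baseline. The mode of HCC 5 was itself not settled. Relative to the autosomal median it lay at 0.21 and 0.28 in its forward and dye swap arrays, but at -0.32 in their average. Centring on the latter would raise HCC 5 instead, and was not done.

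**Figure D1:**
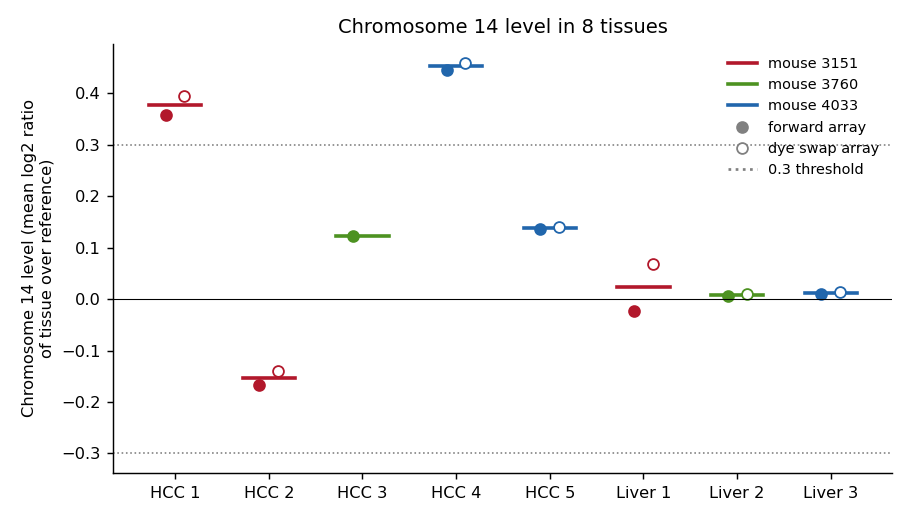
Chromosome 14 level (mean log2 ratio of tissue over reference, vertical axis) in 5 HCC and 3 unaffected livers (horizontal axis), where bars are the tissue mean, filled points forward arrays, open points dye swap arrays and colours the mouse. HCC 1 (0.38) and HCC 4 (0.45) lie above the dotted line at 0.3, HCC 2 (-0.15) lies below 0, the livers lie at 0.01 to 0.02, and HCC 5 (0.14) falls to -0.11 with the mode as the baseline.

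At the study's threshold of 0.3 for a whole-chromosome event, chromosome 14 was gained in 2 of 5 HCC (HCC 1 and HCC 4) and lost in 0, and no liver passed the threshold. Over all autosomes and HCC, 20 of 95 levels (21.1%) passed as gains and 15 of 95 (15.8%) as losses. With the mode of each array as baseline HCC 4 alone passed, though the mode of HCC 5 was not settled, as given above. With the median as baseline, no HCC passed a threshold of 0.5. The share of probes above 0 was 94.4%, 17.4%, 72.7%, 96.7% and 89.6% in HCC 1 to 5, against 49.0% to 51.5% of autosomal probes in these tumours. In the livers it was 59.0%, 53.7% and 55.4%. In bulk DNA a large gain in few cells and a small gain in many cells cannot be told apart, nor can a smaller gain and a lower share of tumour cells.

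As groups, the tumours and livers did not differ beyond the spread between tumours. The 5 HCC averaged 0.19 ± 0.24 (SD, n = 5) and the 3 livers 0.014 ± 0.0079 (SD, n = 3). They differed by 0.17 with an SE of 0.13 (limma over 19 autosomes, adjusted p = 0.452; 1 of 19 autosomes, 5.26%, was called, and it was not chromosome 14). An exact two-sided permutation test over 56 splits of the tissues gave p = 0.286, where the smallest possible p is 0.0179. Measured against the liver of the same mouse, HCC 1 to 5 lay at 0.35, -0.18, 0.11, 0.44 and 0.13, above their own liver in 4 of 5. The mean of 0.17 ± 0.24 (SD, n = 5) gave p = 0.25 by exact sign flips, whose smallest p is 0.0625. With the mode as baseline HCC 5 lay at -0.11 and its own liver at 0.01, so HCC 5 was then below its liver. Within the first scan day (2 HCC, 2 livers) the difference was 0.12, and within the other (3 HCC, 1 liver) 0.20. Tissues of one mouse are not independent animals, so these p-values measure the spread between pieces of tissue.

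Tumours of one animal differed on chromosome 14. HCC 1 exceeded HCC 2 of mouse 3151 by 0.53, the largest difference of the 19 autosomes between that pair. The next was chromosome 3, at -0.42. On chromosome 14, 1492 of 1562 probes (95.5%) read higher in HCC 1 than in HCC 2, against 46.1% of autosomal probes. In mouse 4033, HCC 4 exceeded HCC 5 by 0.31, rank 8 among the differences of the 19 autosomes, where chromosome 6 had the largest at 0.63. There 1454 probes (93.1%) were higher in HCC 4, against 46.8% of autosomal probes. With the mode as baseline these differences were 0.32 and 0.52, in the same direction, but chromosome 14 then stood at rank 6 between HCC 1 and HCC 2, where chromosome 3 had the largest difference at -0.63, and at rank 5 between HCC 4 and HCC 5. Each is a comparison of single tumours without replicate tumours, so no test was made.

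Chromosome 14 stood at rank 3, 15, 7, 2 and 7 from the highest of 19 autosomes in HCC 1 to 5. Compared with chromosome 15, the highest on average, chromosome 14 was lower by 0.12, 0.48, 0.24, 0.27 and 0.42 in HCC 1 to 5, with a mean difference of -0.31 ± 0.14 (SD, n = 5). It was lower in 5 of 5 tumours (exact sign flips, p = 0.0625, the smallest possible, and 0.125 adjusted over 2 chromosomes compared). Since chromosome 15 has the highest mean of these same values, a lower mean on chromosome 14 was fixed beforehand. The p takes no account of that, so no conclusion is drawn from it. Against chromosome 18 the mean difference was -0.14 ± 0.18 (SD, n = 5), lower in 3 of 5 (exact p = 0.25, adjusted 0.25). With 5 tumours the smallest p by sign flips is 0.0625, so neither difference could have passed the threshold. Chromosome 18 also had a higher mean (0.33) than chromosome 14 (0.19) in these same values. No conclusion is drawn from either p.

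**Figure D2:**
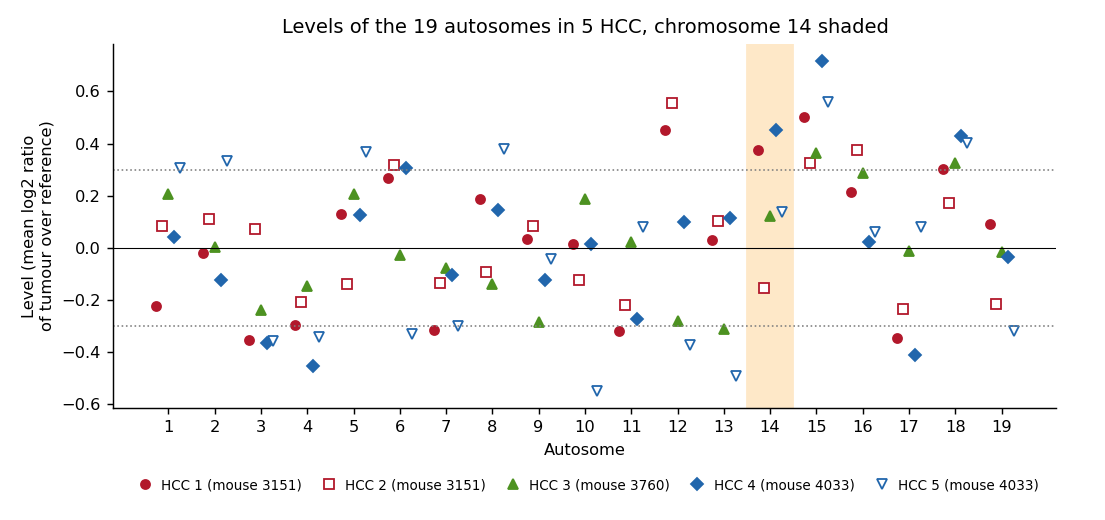
Level (mean log2 ratio of tumour over reference, vertical axis) of each of 19 autosomes (horizontal axis) in 5 HCC, with colour for the mouse and a marker for each tumour. On chromosome 14 (shaded) the points spread from -0.15 (HCC 2) to 0.45 (HCC 4), and HCC 5 (0.14) lies at -0.11 with the mode as the baseline.

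The level ran along the whole measured length of the chromosome. Means of 5 Mb bins with at least 10 probes (21 bins, of 10 to 168 probes) ran from 0.27 to 0.46 (HCC 1), from -0.20 to -0.07 (HCC 2), from 0.07 to 0.21 (HCC 3), from 0.33 to 0.57 (HCC 4) and from 0.09 to 0.19 (HCC 5). In the livers they ran from -0.03 to 0.12. All 21 bins of HCC 4 and 20 of HCC 1 reached 0.3. The lowest bin of HCC 1, 2, 4 and 5, at 85 to 90 Mb, held the fewest probes (10) and the lowest median GC content (34.2%), and in HCC 3 the same bin was the highest. Whether GC content had a part in that bin was not tested.

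With the autosomal median as baseline, each tumour less its own liver had the same sign in every bin. The difference was above 0 in 21 of 21 bins in HCC 1 (0.25 to 0.42), HCC 3 (0.05 to 0.20), HCC 4 (0.36 to 0.49) and HCC 5 (0.07 to 0.15), and in 0 of 21 in HCC 2 (-0.23 to -0.13). Centring on the mode moved the chromosome 14 level of HCC 5 by -0.25, more than any of its bin differences. The sign of HCC 5 in the bins thus depended on the baseline. HCC 1 exceeded HCC 2 by 0.47 to 0.61 in every bin, and HCC 4 exceeded HCC 5 by 0.24 to 0.38. The SD over bins of a tumour less its liver was 0.02 to 0.04. Between HCC and livers as groups, the bins differed by 0.15 to 0.20, and 0 of 21 were called (limma, adjusted p from 0.518 to 0.565; 0 at an unadjusted p under 0.05), where 0.826% of all 484 autosomal bins were called and 9.71% had an unadjusted p under 0.05. Without HCC 2, the tumour on the other side of 0, 20 of the 21 bins had an unadjusted p under 0.05 and still 0 were called.

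**Figure D3:**
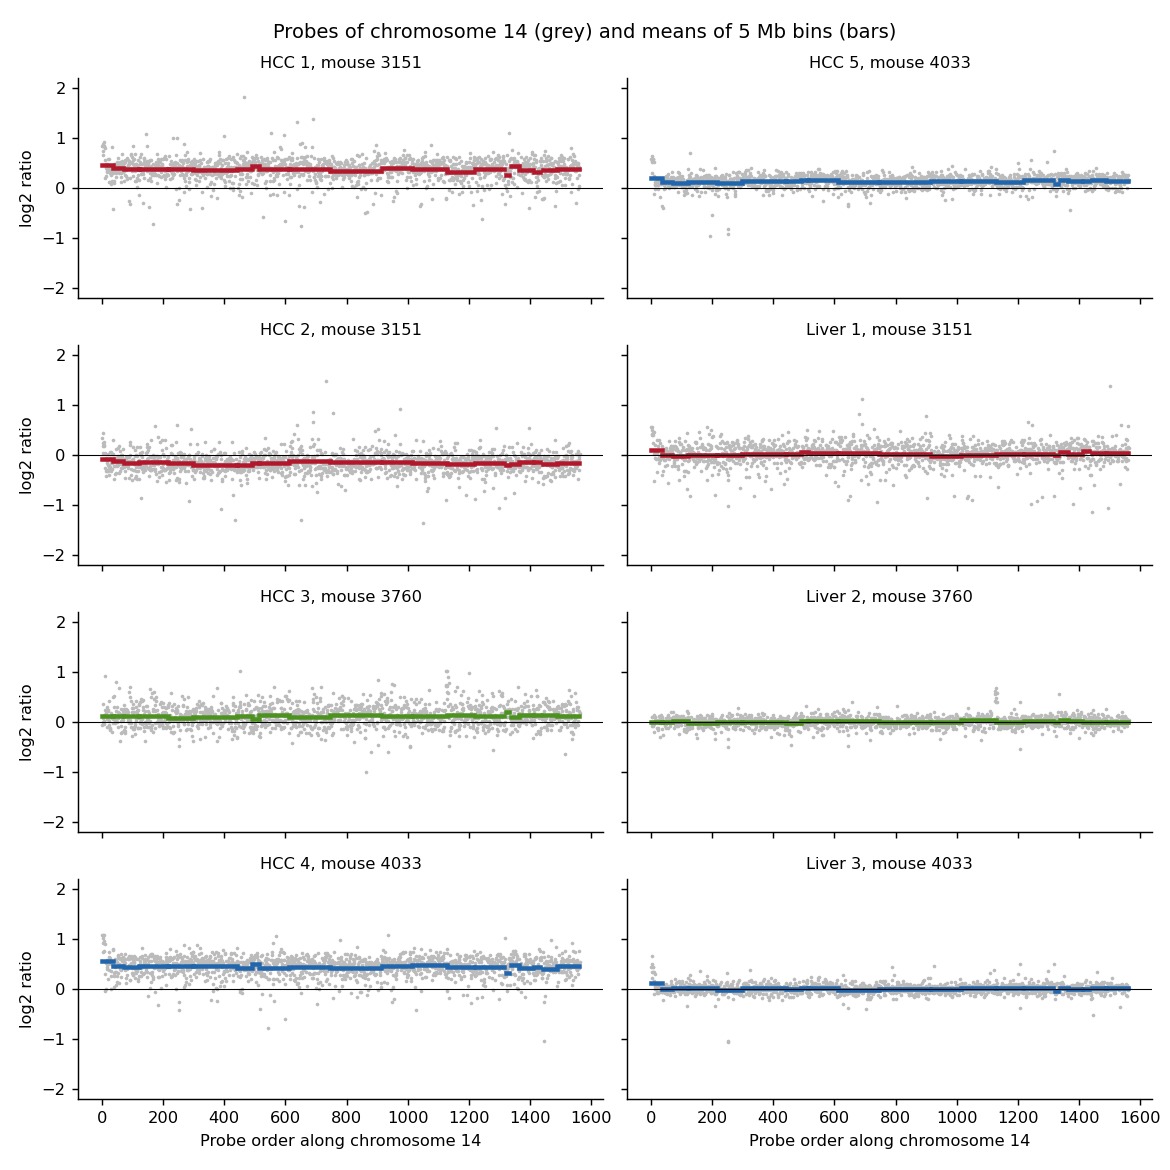
log2 ratio of the 1562 chromosome 14 probes (grey points, vertical axis) in order of position (horizontal axis, probe number) in 8 tissues, with coloured bars for the means of 5 Mb bins of at least 10 probes. The bars run flat in each tissue, near 0.38 in HCC 1 and 0.45 in HCC 4, with a raised group of probes to the right of the centre in mouse 3760. With the mode as baseline HCC 5 lies below 0.

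Segments were found by partitioning the ordered probes into runs of equal mean, with at least 5 probes to a run. In each HCC less its own liver, chromosome 14 was 1 segment, with 0 breakpoints in 5 tumours, also with a looser or stricter penalty or with runs of 3 probes. Of the other 18 autosomes, 10 to 16 per tumour were likewise 1 segment. No breakpoint was therefore detected in a tumour less its liver, though changes over fewer probes or of smaller size could have been missed. Against the reference, by contrast, 10 focal calls (a run of fewer probes than the rest of the chromosome, at least 0.3 from its median) were made in 8 tissues. Described here are 2 of the regions they fell in, each called in 1 HCC and in the unaffected liver of the same mouse. Since these values chose the regions, they are described without a test.

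The first of them, 26683125 to 27230888 (548 kb, 7 probes), joins the calls of HCC 5 and unaffected liver 3, both of mouse 4033, which covered 5 probes each. The call of HCC 5 ran from 26683125 to 27183927 and lay 0.51 below the chromosome 14 median, and that of unaffected liver 3 ran from 26707473 to 27230888 and lay 0.46 below it. Over all 7 probes the mean was -0.12, -0.10, -0.24, -0.21 and -0.35 in HCC 1 to 5 and -0.39, -0.12 and -0.27 in the livers, lowest in unaffected liver 1 of mouse 3151, where no call was made. The region rested on the probes of AK047878 and of Cphx, an embryonic homeobox gene. The AK047878 probe lay at -0.64, -0.32, -0.58, -0.91 and -1.07 in HCC 1 to 5 and at -1.06, -0.51 and -1.07 in the livers, relative to the chromosome 14 median. The Cphx probe lay at -0.40, -0.37, -0.45, -0.75 and -0.96 in the HCC and at -0.54, -0.35 and -1.05 in the livers. Both were thus below the median in all 8 tissues, and both lay near or under -1 only in HCC 5 and unaffected liver 3. The other 5 probes of the region, in Anxa11, which encodes a calcium-dependent membrane-binding protein, in AK087762 and without a gene name, lay between -0.44 and 0.32.

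The other, 69877295 to 70082968 (206 kb, 9 probes), belonged to mouse 3760. It holds Slc25a37, a mitochondrial iron importer, D930020E02Rik, Entpd4, a nucleoside diphosphatase, AK031288 and Loxl2, a lysyl oxidase that crosslinks collagen. Relative to the chromosome 14 median its mean was 0.65 in HCC 3 and 0.52 in unaffected liver 2. In HCC 1, 2, 4 and 5 it was -0.15, -0.11, -0.06 and 0.03, and in unaffected livers 1 and 3 it was -0.05 and 0.01. All 9 probes lay above the median in both tissues of mouse 3760, against 2 to 5 of 9 in the others. Unaffected liver 2 gave 0.50 on the forward and 0.55 on the dye swap array, and HCC 3, with 1 array, exceeded it by 0.13. Loxl2, taken as a gene, read 0.70 in HCC 3 and 0.52 in unaffected liver 2, and 0.47, 0.37, 0.10 and -0.26 in HCC 4, 1, 5 and 2.

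**Figure D4:**
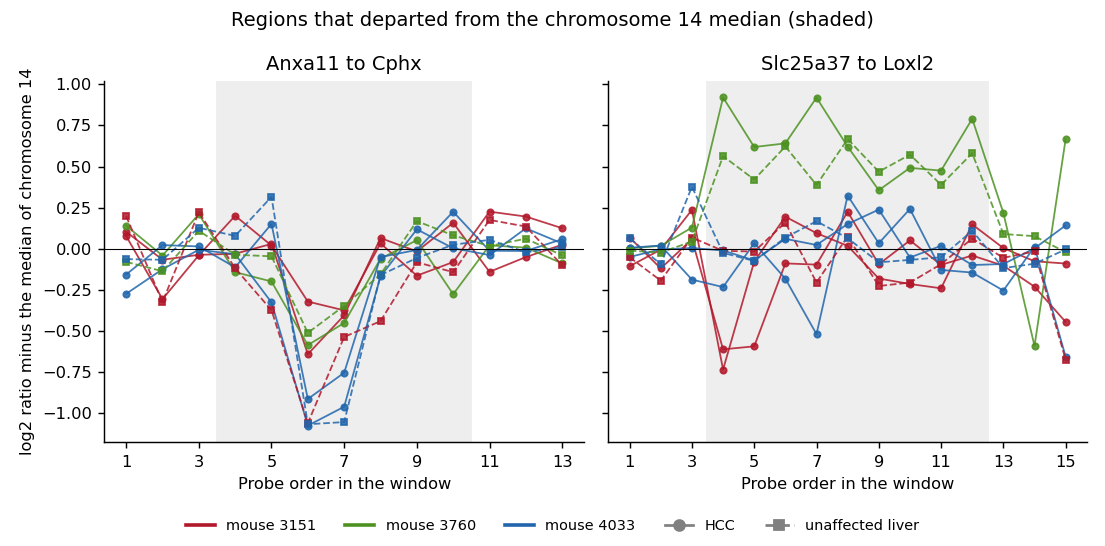
log2 ratio less the median of chromosome 14 (vertical axis) of the probes in and beside 2 regions (horizontal axis, probe order in the window; region shaded) in 8 tissues, with colour for the mouse, solid lines for HCC and dashed lines for unaffected livers. All tissues lie below 0 at the AK047878 and Cphx probes, and mouse 3760 lies at 0.52 and 0.65 on average from Slc25a37 to Loxl2.

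Runs of 3 probes added 1 call, at positions 116446228 to 116991313 in Gpc5, a cell surface heparan sulphate proteoglycan, where HCC 4 lay 0.97 below the chromosome median. It was not called in HCC 5 or unaffected liver 3 of the same mouse. In HCC 4 less its own liver, however, runs of 3 probes gave no breakpoint. Of the 3 probes, only that at 116961285 to 116961344 lay at least 0.5 from the median in both orientations of HCC 4. Whether the tumour differs there from its liver was not tested.

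Single probes that departed from the chromosome 14 median by at least 0.5 in both orientations, in the same direction, were then counted in the 7 tissues with both arrays. The threshold of 0.5 was chosen after the values were seen. There were 10 such probes in HCC 1 (0.64%), 12 in HCC 2 and HCC 4 (0.768% each) and 4 in HCC 5 (0.256%), against 1.09%, 1.35%, 1.26% and 0.854% of autosomal probes. In the livers there were 6, 2 and 3 (0.384%, 0.128% and 0.192%, against 0.778%, 0.597% and 0.805%). The share was below that of the autosomes in each tissue. In all, 31 probes departed, 21 of them in 1 tissue. HCC 1 and HCC 2 shared 5, of the 10 in HCC 1 and the 12 in HCC 2. All 3 probes of unaffected liver 3 were among the 12 of HCC 4 of the same mouse. Tissues of different mice shared at most 1.

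The probe of Lect1, a cartilage protein that inhibits vessel growth, separated the mice. It lay at -0.71, -0.70 and -0.85 in HCC 1, HCC 2 and unaffected liver 1, at -0.12 and -0.18 in HCC 3 and unaffected liver 2, and at 0.55, 0.60 and 0.48 in HCC 4, HCC 5 and unaffected liver 3. One of 5 BC055283 probes was high in mouse 3151, at 0.99, 1.02 and 1.09 in HCC 1, HCC 2 and unaffected liver 1, and lay between -0.09 and 0.34 in the other 5 tissues. One of 3 probes of the olfactory receptor gene Olfr745 was low in the same mouse, at -1.16, -1.14 and -0.85, and at -0.57 to 0.11 elsewhere. The values are relative to the chromosome 14 median. Departures in a single tumour included the Gdf2 probe, a bone morphogenetic protein made in liver, at -1.13 in HCC 2 (-0.61 in unaffected liver 1), and an AK131826 probe at 1.65 in HCC 2, between -0.33 and 0.08 in the other tissues.

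Among the 10 chromosome 14 probes with the widest range over the 3 livers, Lect1 (1.33) and BC055283 (1.19) agreed between the orientations of unaffected liver 1. In the other 8, which included probes of Dad1, Uchl3, Gng2 and Zfp395, those orientations were more than 1 apart, with forward values of -2.33 to 2.66 and dye swap values of -0.25 to 0.61. The probe with the widest range (1.35, near the far end of the chromosome and without a gene name) read 2.66 in the forward and 0.02 in the dye swap orientation of unaffected liver 1.

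Over all probes, 0 of 1562 on chromosome 14 passed the test of HCC against unaffected liver (limma, adjusted p of at least 0.358; 0 of 40720 autosomal probes, 0%). An unadjusted p under 0.05 was found for 49 (3.14%, against 7.4% of autosomal probes), all higher in HCC. In 39 of 1562 probes, against 5.3% of autosomal probes, every HCC lay above every liver, and in 0 below, against 3.22%. The median difference was 0.17, against -0.001 over the autosomes. Without HCC 2 the 49 became 333. They became 26 without HCC 1, 30 without HCC 4, 7 without unaffected liver 1 and 15 with the mode as baseline, with 0 called in each. The probe with the smallest p, without a gene name (chr14:50916726-50916785), read 0.37, 0.41, 0.17, 0.28 and 0.08 in HCC 1 to 5 and -0.39, -0.04 and -0.30 in the livers, a difference of 0.50 with an SE of 0.14 (limma, adjusted p = 0.358). The groups did not overlap there, and HCC 2 read as high as HCC 1. The others of the 5 with the smallest p were those of AK052715, of Trim13 and 2 without a gene name, with differences of 0.41 to 0.57 (limma, adjusted p of 0.398 to 0.464).

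With the median of each chromosome removed, 0 of 1562 probes were called and 14 (0.896%, against 1.53%) had an unadjusted p under 0.05, 9 higher and 5 lower. Every HCC lay above every liver in 9 probes (0.576%, against 0.85%) and below in 17 (1.09%, against 1.22%). The probe with the smallest p was that of Mphosph8, which binds methylated histone H3 in silenced chromatin. It lay at -0.43, -0.27, -0.27, -0.40 and -0.04 in HCC 1 to 5 and at 0.19, 0.04 and 0.08 in the livers, a difference of -0.38 with an SE of 0.10 (limma, adjusted p = 1). It was followed by probes of Fgf17, a fibroblast growth factor, AK084812, AK177407 and 1 without a gene name, with differences of -0.38 to 0.32.

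As genes, 542 of 744 names (72.8%) had a mean of at least 0.3 in HCC 1 and 654 (87.9%) in HCC 4, where 17.5% and 16.2% of autosomal names did. In HCC 2, 3 and 5 there were 8, 111 and 32 (1.08%, 14.9% and 4.30%, against 16.8%, 13.5% and 26.3%), and in the livers 28, 7 and 4 (against 2.95%, 0.657% and 0.832%). Higher in HCC than in the livers on average were 718 of 744 names, as against 48.6% of 19948 autosomal names, with a median difference of 0.17 against -0.008. Every HCC lay above every liver in 14 of the 744 names (against 6.06% of autosomal names) and below in 0 (against 3.72%). Over chromosome 14 probes, forward and dye swap values correlated at r = 0.02, 0.08, 0.10 and -0.28 in HCC 1, 2, 4 and 5. In unaffected livers 1 to 3, r was -0.17, -0.09 and -0.15. Differences between probes of a tissue were thus little shared by both arrays, which limits gene values of few probes. The genes of 3 lists were read by counts and medians.

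All 24 genes of the list for growth control and tumour suppression had probes (43). Of these, 22 had a higher mean in HCC and 2 (Fgf17 and Bmp4) a lower one, where 718 of 744 chromosome 14 names were higher. The median difference was 0.15, against 0.17 over those names. None of the probes was called (limma). An unadjusted p under 0.05 was found for 2, against 3.14% of chromosome 14 and 7.4% of autosomal probes. The list median was 0.36, -0.19, 0.11, 0.46 and 0.11 in HCC 1 to 5, and 0.03, -0.01 and 0.01 in the livers; with the mode as baseline HCC 5 fell to -0.14. Relative to the chromosome the median difference was -0.03. At least 0.3 were 15 genes in HCC 1, 19 in HCC 4, 6 in HCC 3 and 1 each in HCC 2 and HCC 5.

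Rb1, which restrains entry into S phase, read below its chromosome in most tissues, mainly on 1 of its 2 probes. Its 2 probes averaged 0.16, -0.28, 0.22, -0.0015 and -0.05 in HCC 1 to 5 and -0.11, -0.31 and -0.18 in the livers, a mean of 0.01 ± 0.20 (SD, n = 5) against -0.20 ± 0.10 (SD, n = 3). The groups overlapped, and an exact permutation test gave p = 0.143. The probe shown above lay 0.47, 0.17, 0.77 and 0.31 under the chromosome 14 median in HCC 1, 2, 4 and 5 and 0.29, 0.55 and 0.39 under it in the livers, and 0.07 over it in HCC 3. Relative to that median both Rb1 probes together averaged -0.24, -0.12, -0.49 and -0.19 in HCC 1, 2, 4 and 5. In the livers they averaged -0.15, -0.32 and -0.19, so most of the offset came from the 1 probe. Lats2, the Hippo kinase, read 0.36, 0.05, 0.21, 0.38 and 0.17 in the HCC and 0.07, -0.01 and 0.12 in the livers, with its 3 probes between -0.16 and 0.48 in HCC 2. Bap1, a histone deubiquitinase that acts as a tumour suppressor, had 1 probe, at -0.03, -0.19, 0.53, -0.04 and 0.12 in the HCC and 0.29, -0.08 and -0.18 in the livers, and the groups overlapped.

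Trim13, a ubiquitin ligase, was the 1 gene of this list with every HCC above every liver (14 of 744 over chromosome 14). Its single probe read 0.36, 0.40, 0.34, 0.27 and 0.09 in HCC 1 to 5 and -0.42, -0.01 and -0.03 in the livers, a difference of 0.44 (limma over all probes, adjusted p = 0.445). Bnip3l, a mitophagy receptor, followed the chromosome, with 0.51, -0.19, 0.03, 0.48 and 0.07 in the HCC and 0.01 to 0.04 in the livers. Dok2, an adaptor that damps kinase signalling, had the widest spread of the list in HCC, with 0.40, -0.80, 0.11, 0.47 and -0.02. It had 1 probe, which in HCC 2 did not depart by 0.5 from the chromosome 14 median in both orientations.

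Of 16 genes for cell division and DNA repair, 11 had a named probe, 5 of them under an older symbol; Cdkn3, Cenpj, Ccnb1ip1, Apex1 and Supt16h were not matched by name. All 11 had a higher mean in HCC, as had 718 of 744 chromosome 14 names, with a median difference of 0.17, the value also found over those names. Of 21 probes, 0 were called (limma). An unadjusted p under 0.05 was found for 2, against 3.14% of chromosome 14 and 7.4% of autosomal probes. The list median was 0.51, -0.24, 0.09, 0.52 and 0.10 in HCC 1 to 5 and 0.01, 0.01 and -0.02 in the livers; with the mode as baseline HCC 5 fell to -0.15. Cdca2, which directs a phosphatase to chromatin at mitotic exit, read 0.57, -0.07, -0.01, 0.63 and 0.22 in the HCC and lay within 0.02 of 0 in each liver. Esco2, which acetylates cohesin, read 0.51, -0.83, 0.02, 0.58 and 0.08. Neither of its 2 probes departed by 0.5 from the chromosome 14 median in both orientations of HCC 2. Parp2, which marks DNA breaks, read 0.57, -0.24, 0.13, 0.49 and 0.04, against 0.22, 0.03 and -0.07 in the livers.

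In Haus4, a subunit of the augmin complex that branches spindle microtubules, every HCC lay above every liver (14 of 744 names over chromosome 14). Its 2 probes averaged 0.28, 0.24, 0.40, 0.14 and 0.20 in HCC 1 to 5 and -0.06, -0.10 and 0.07 in the livers, and neither probe passed the test over all probes. The probes, listed as D14Ertd500e, disagreed: HCC 2 read 0.85 on one and -0.38 on the other, HCC 4 read -0.18 and 0.46, and the groups overlapped on each.

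Of 22 genes for hepatocyte metabolism and secreted proteins, 21 had probes (44). Of these, 20 had a higher mean in HCC and 1, Mat1a, which makes S-adenosylmethionine in liver, a lower one. Over chromosome 14, 718 of 744 names were higher. The median difference of the list was 0.13, against 0.17 over those names, and none of its probes was called (limma). An unadjusted p under 0.05 was found for 2, against 3.14% of chromosome 14 and 7.4% of autosomal probes. The list median was 0.40, -0.20, 0.16, 0.49 and 0.12 in HCC 1 to 5 and 0.07, 0.01 and 0.01 in the livers; with the mode as baseline HCC 5 fell to -0.13. Mat1a read 0.17, -0.30, 0.34, 0.38 and 0.13 against 0.35, 0.15 and 0.16. The inter-alpha-trypsin inhibitor heavy chains Itih1, Itih3 and Itih4, made in liver for the blood, lie side by side. Itih1 read 0.30, 0.04, 0.08, 0.44 and 0.15 in the HCC and -0.29, -0.07 and -0.02 in the livers, without overlap (14 of 744 names over chromosome 14). That rested on 1 of its 3 probes (chr14:31754699-31754752), at -0.82 in unaffected liver 1 and 0.25 in HCC 2. The other Itih1 probes read -0.06 and -0.09 in HCC 2 and -0.13 to 0.06 in the livers, with overlap. Itih3 and Itih4 overlapped between the groups, and HCC 2 read -0.38 and -0.39 in them.

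Clu, a secreted chaperone, read 0.58, -0.31, 0.05, 0.57 and 0.11 in HCC 1 to 5, and Gata4, a transcription factor of liver development, 0.51, -0.32, -0.0049, 0.59 and 0.13. Both thus ran high in HCC 1 and HCC 4 and below 0 in HCC 2.

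**Figure D5:**
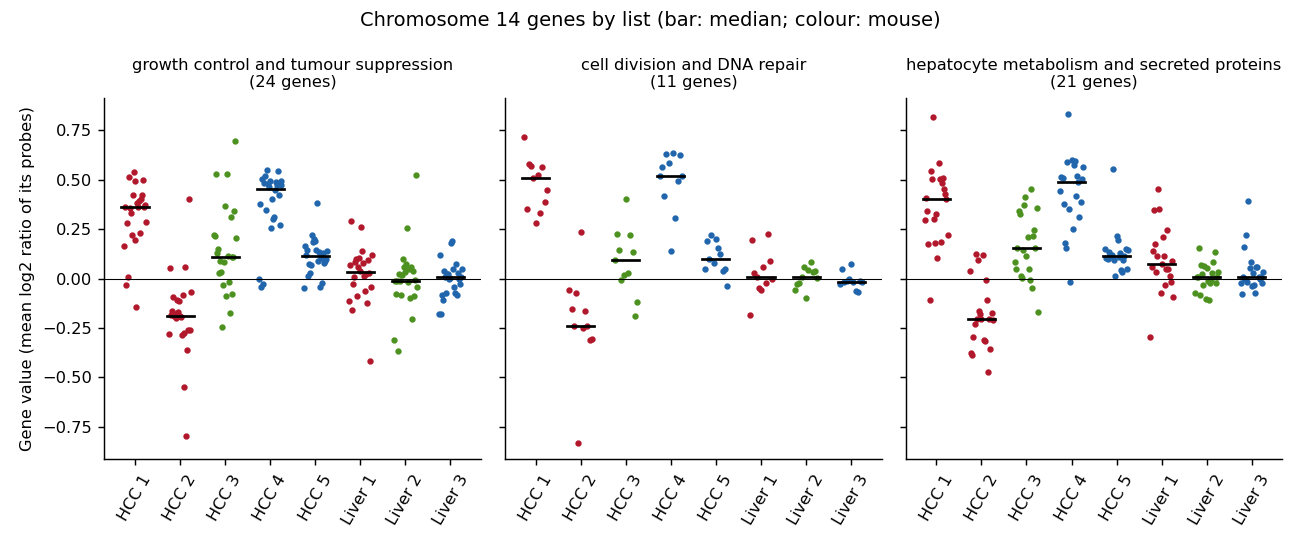
Gene value (mean log2 ratio of its probes, vertical axis) of chromosome 14 genes in 3 lists (panels) in 8 tissues (horizontal axis), each point a gene, black bars the list median and colours the mouse. The medians lie at 0.36 to 0.51 in HCC 1, at 0.46 to 0.52 in HCC 4, below 0 in HCC 2 and near 0 in the livers, while those of HCC 5 (0.10 to 0.12) fall below 0 with the mode as the baseline.

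The gene clusters lay close to the level of the chromosome. The T cell receptor alpha and delta locus, rearranged by deletion in T cells, had 7 probes between 53166664 and 54827341. Its mean was 0.47, -0.02, 0.07, 0.44 and 0.16 in HCC 1 to 5 and 0.02, 0.01 and 0.04 in the livers, within 0.14 of the chromosome 14 median in each tissue. In HCC 2 the 1.49 of a single AK131826 probe raised it, and the other 6 probes lay at -0.42 to -0.13. The 10 probes of the ribonuclease A family, which includes the eosinophil-associated Ear4 and Ear11, averaged 0.40, -0.20, 0.01, 0.55 and 0.14 in the HCC and 0.19, 0.01 and -0.02 in the livers. The 11 probes of mast cell proteases and granzymes, proteases stored in granules of mast cells and killer lymphocytes, averaged 0.30, -0.10, 0.19, 0.35 and 0.12, against 0.04, 0.00 and 0.01. The 28 olfactory receptor probes averaged 0.37, -0.15, 0.06, 0.51 and 0.16, against 0.06, 0.08 and 0.02. The beta-defensin genes Defb30 and Defb42 had 2 probes, at 0.47, -0.19, 0.19, 0.45 and 0.07 on average, against 0.09, 0.04 and -0.09. No probe of these clusters had an unadjusted p under 0.05.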

How the data were processed

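DNA of 8 tissues was read on 15 arrays. The authors scanned the arrays and processed them with Feature Extraction 9.1.3.1, and the deposited scanner files give intensity values per spot and dye, background-subtracted and dye-normalised per the file headers. The deposited series table holds log10 ratios equal to those of the scanner files, with the opposite sign for dye swaps. Here the log2 ratio of tissue over reference was computed from the deposited processed intensities, control and outlier-marked spots were left out, spots of a probe were averaged, the autosomal median of every array was set to 0, and both orientations of a tissue were averaged to 1 value. HCC and unaffected livers were compared with limma 3.58.1 in R 4.3.3 (Benjamini-Hochberg over all autosomes, bins or probes) and with exact permutations in Python 3.11.15. Chromosome 14 and the gene lists were chosen with earlier results of these data known. The genes and probes named were the members of the lists, the 5 probes with the smallest p in each fit, the 10 with the widest range among livers and those of called regions; Gdf2, Lect1, BC055283, Olfr745, AK131826 and Gpc5 were picked after their values were seen. Symbols were matched to RefSeq by name for 550 of 744 gene names. Alternatives were normexp background, other centring, forward arrays alone, other filters, bins and penalties, mouse or slide as a block, and leaving out each tissue. Each statistic was tested on simulated data. The precision is limited by the number of tissues. Results for 1 further region and 1 gene are not reported here. Further tissues counted in the series text were not analysed here.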

Additional observations from a re-analysis of the deposited data

Results flagged for a closer look

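In 2 of 79 results examined (2.53%), 1 of the 5 HCC lay far from the other 4, by a gap of over 0.71 of the whole range. Chance alone sets about 5% of independent results apart. The 79 share probes and some were chosen by their values, so this share was not weighed against chance. From Slc25a37 to Loxl2, HCC 3 lay at 0.65 relative to the chromosome 14 median, where the other HCC lay at -0.15 to 0.03. The liver of the same mouse lay at 0.52. The values of HCC 3 and of this liver chose the region, so the place of HCC 3 apart there was set beforehand. Adk, which encodes adenosine kinase, read 0.54 in HCC 1 and 0.01 to 0.15 in the other HCC. Its 2 probes disagreed: HCC 4 read 0.63 on one, above the 0.58 of HCC 1, and -0.33 on the other. Relative to the chromosome 14 median, Adk lay at 0.14 in HCC 1 and 0.28 in HCC 2.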

How the results depend on the processing

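The difference in level between HCC and livers kept its direction under 21 alternatives (0.11 to 0.26) and missed the threshold in the 19 with a test (limma adjusted or exact p of 0.112 to 0.746). With mouse as a block, since the labels give tissues of one mouse, it was 0.17 (limma, adjusted p = 0.544), and 0 probes and 0 bins were called; the block changed no other call. The level of HCC 5 turned to -0.11 when each array was centred on its mode, which was not settled in HCC 5. Events numbered 1 with that centring, 0 at a threshold of 0.5, and 1 to 2 when each tissue was left out. Probes with an unadjusted p under 0.05 numbered 7 to 333, those relative to their chromosome 4 to 58, and bins 0 to 20. Departing probes numbered 72 at 0.4 and 12 at 0.7, thresholds chosen after seeing the data. Focal calls numbered 7 to 12. The cause of these shifts was not tested. HCC 3 rests on 1 array. Signal over background and the weak agreement of both orientations over probes limit single probes.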
